A study of Mus musculus with 4 samples.

Results

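VIP interneurons of the mouse cerebral cortex were followed here as 302 nuclei out of 35694. A nucleus was taken as a VIP interneuron when its raw counts of unique molecular identifiers (UMIs, each standing for 1 captured transcript) held at least 1 UMI of Gad1 or Gad2, none of Slc17a7, at least 1 of Vip, at least 2 of Adarb2, none of Sst and at most 1 of Rarb. The levels of these 7 genes therefore chose the nuclei and are given below as a description. Single-nucleus RNA sequencing was run on the right cerebral cortex of male C57Bl/6J littermates at postnatal day 100, with 2 control (CrT+/y) and 2 CrT-KO (CrT-/y) animals and 1 library per animal. CrT-KO animals carry a deletion of exons 5 to 7 of Slc6a8, the X-linked gene of the creatine transporter, in all of their cells, and no treatment was given to either group. Each difference below thus compares 2 animals with 2 animals.

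Interneurons that make vasoactive intestinal peptide (VIP) arise in the caudal ganglionic eminence and release GABA mainly onto other interneurons, so that their firing releases pyramidal cells from inhibition. Many respond to acetylcholine and serotonin, and subsets co-express the peptides or enzymes encoded by Calb2, Cck, Crh, Tac2, Penk or Chat. Creatine and its phosphorylated form buffer ATP, and the transporter brings creatine into the cell.

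The VIP nuclei numbered 80 and 83 in the control libraries and 76 and 63 in the CrT-KO libraries. They held 445518 and 487435 UMIs in controls, against 435902 and 329274 in CrT-KO, and medians per nucleus ran from 4704 to 5643.5 UMIs over the 4 libraries. Scrublet, a tool that scores barcodes likely to hold more than 1 nucleus, marked 9 of the 302 (1, 3, 3 and 2 by library) and 1213 of all 35694 nuclei. The libraries shared 12 to 19 barcodes per pair, and 3 VIP barcodes were also present in another library. Mitochondrially encoded UMIs had a median share of 0.121% and 0.101% in control VIP nuclei and of 0.103% and 0.0755% in CrT-KO VIP nuclei. Replicates of a group differed by more than counting noise (chi-square per degree of freedom 1.75 in controls and 1.61 in CrT-KO).

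The nuclei carried the markers of VIP interneurons that the choice did not use. Levels are given as CPM, the UMIs of a gene scaled to a fixed total of 1000000 UMIs of that population in that library, and they are compared between populations gene by gene, since UMIs from introns scale with gene length. Igf1, which encodes insulin-like growth factor 1, stood at 751.9 and 890.4 CPM in the control VIP nuclei and at 791.5 and 680.3 CPM in the CrT-KO VIP nuclei, while the other interneurons (Gad1 or Gad2 present, no Slc17a7, at most 1 Rarb UMI, outside the VIP rule) had a mean of 76.4 CPM. Prox1, a homeobox transcription factor of interneurons from the caudal eminence, stood at 258.1, 254.4, 275.3 and 279.4 CPM in the same order, against a mean of 37.7 CPM in the other interneurons and of 127.6 CPM in LAMP5 nuclei. Igf1 was detected in 253 of the 302 nuclei (83.8%) and Prox1 in 204 (67.5%), against 3.04% and 1.24% of 4928 excitatory nuclei (Slc17a7 at least 2, no Gad1 or Gad2), which were deeper, with a median of 9617.5 UMIs against 5094.5. Both markers were thus well above what free RNA left in excitatory nuclei.

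Of 31 listed VIP markers, 29 were detected in at least 1 VIP nucleus, and Crispld2 had no UMI in any. Of the markers of other interneurons, Pvalb had 3 UMIs in all VIP nuclei together, Lamp5 had 3, and Ndnf had 4. Their wider lists were present. The 10 PV markers summed to 12120.6 to 14457.3 CPM, against 10327.4 CPM in the other interneurons and 19562.9 CPM in PV nuclei. Most of that sum was Erbb4, also a listed VIP marker, at 10407.7 to 12219.5 CPM. SST markers summed to 376.6 to 574.6 CPM, against 3387.2 CPM in SST nuclei. LAMP5 markers summed to 452.5 to 668.9 CPM, against 3075.4 CPM in LAMP5 nuclei. Markers of oligodendrocyte precursors summed to 18.0 to 41.3 CPM, those of microglia to 29.2 to 50.5 CPM and those of endothelial cells and pericytes to 4.59 to 9.11 CPM. The 8 oligodendrocyte markers, all detected, summed to 121.6 to 236.9 CPM, against 285.5 CPM in the other interneurons and 634.8 CPM over all nuclei. Of 8 astrocyte markers 5 were detected, summing to 208.7 to 328.1 CPM, above the 166.8 CPM of the other interneurons and below the 450.4 CPM of all nuclei, while Aqp4, Gja1 and Gfap had no UMI.

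**Figure D1:**
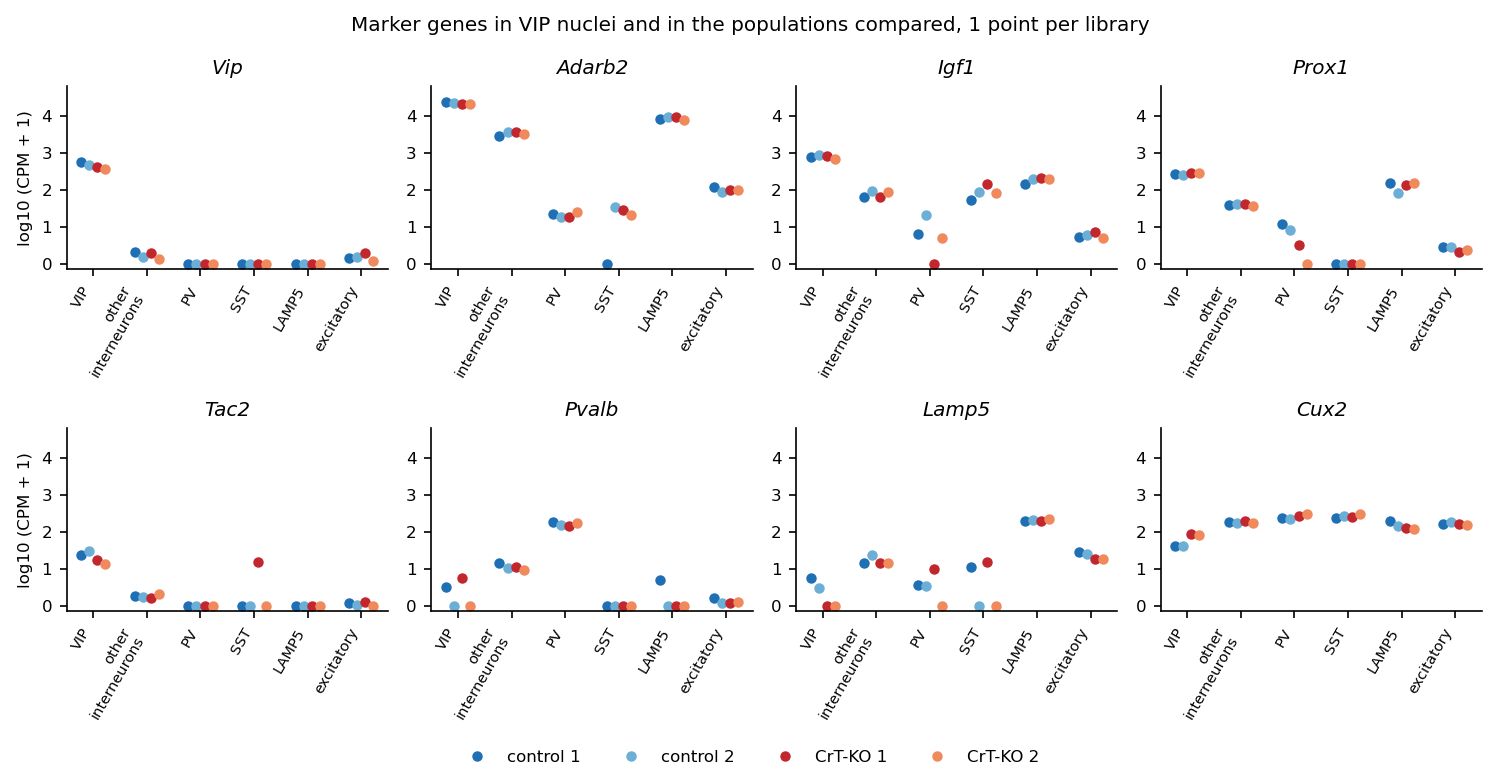
Level of 8 marker genes, as log10 of CPM plus 1, in 6 populations of nuclei, with 1 point per library (blue, control; red and orange, CrT-KO). Vip and Adarb2 chose the VIP nuclei, and Igf1 and Prox1 stood higher there than in the other populations, while Pvalb and Lamp5 were low. Cux2 was at 40.4 and 39.0 CPM in control and 84.9 and 79.0 CPM in CrT-KO VIP nuclei, below its level in the other populations.

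Ranked by the lowest of the 4 libraries' ratios to the other interneurons among 2964 genes with a mean of at least 50 CPM, Vip came first by construction and Adarb2 eighth. Cp, which encodes the copper-binding ferroxidase ceruloplasmin, was next after Vip, with a mean of 97.2 CPM against 7.3 CPM and ratios of 10.3 to 16.9. Wnt5b, a secreted Wnt ligand, had a mean of 256.6 CPM against 22.9 CPM. Adra1b, an alpha-1 adrenergic receptor, had 312.0 CPM against 36.7 CPM with ratios of 7.8 to 9.38. Cp, Wnt5b and Adra1b were low in LAMP5 nuclei, at 1.38, 14.8 and 92.3 CPM. Gpd1 (glycerol-3-phosphate dehydrogenase, 60.4 against 7.28 CPM), Svil (an actin-binding protein, 244.6 against 38.9 CPM), Sema5b (a semaphorin, 180.7 against 31.3 CPM) and Angpt1 (an angiopoietin, 160.9 against 18.1 CPM) followed. Slc44a5, a member of the choline transporter-like family, had ratios of only 4.36 to 4.71, the narrowest range among these genes. Sorcs3, a sorting receptor, had 2192.4 against 455.6 CPM, Egfr, the epidermal growth factor receptor, had 697.1 against 117.1 CPM and Bcar3, a signalling adaptor, had 76.9 against 13.7 CPM. Egfr was as high in LAMP5 nuclei, at 660.5 CPM. These ratios describe nuclei chosen by their own counts and carry no test.

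At the edge of the rule, 121 nuclei had exactly 1 Vip UMI, and 74.4% of them held Igf1 and 57.0% held Prox1. Among the 181 nuclei with 2 or more Vip UMIs, these shares were 90.1% and 74.6%. Just outside, 1663 nuclei met every other criterion with no Vip UMI, and 28.3% of them held Igf1 and 25.6% held Prox1. The Adarb2 edge was thinly filled, with 8 nuclei at 2 to 5 UMIs inside and 11 nuclei at 0 or 1 outside, and 284 nuclei had 20 or more.

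Slc6a8 (chrX:73673150-73682502, plus strand, GRCm38) had 2 and 1 UMIs in the control VIP nuclei, against 1 and 0 in those of CrT-KO. The ratio of CrT-KO to control was 0.406, with a 95% exact interval of 0.00774 to 5.06 that covers counting error only, so no difference was detectable at this depth. The count of 0 in CrT-KO 2 allows a level of up to 9.11 CPM. Over all nuclei of each library the gene had 381 and 357 control UMIs against 106 and 84 CrT-KO UMIs, a ratio of 0.245 (exact interval 0.208 to 0.288), so both libraries labelled CrT-KO were low. In the other interneurons it had 37 and 39 UMIs against 15 and 6. Transcripts that lack the deleted exons can still give UMIs, since the kit reads the 3' part of transcripts and introns were counted.

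The other creatine genes were near the detection limit in VIP nuclei. Ckb, the brain creatine kinase, had 14, 19, 15 and 3 UMIs in control 1, control 2, CrT-KO 1 and CrT-KO 2, and it alone passed the filter on low counts, with a log2 fold change of -0.62 ± 0.48 (SE, edgeR quasi-likelihood test, adjusted p = 0.956). Gatm, which makes the creatine precursor, had 3, 3, 1 and 7 UMIs, and Gamt, which completes the synthesis, had 1, 1, 0 and 0. Ckmt1, a mitochondrial creatine kinase, had 3, 7, 6 and 4 UMIs.

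VIP nuclei made up a smaller share of both CrT-KO libraries, by an amount the design cannot test at the usual threshold. They were 0.966% and 0.893% of all control nuclei, against 0.82% and 0.712% of CrT-KO nuclei, with 95% exact intervals of 0.767% to 1.2%, 0.712% to 1.11%, 0.646% to 1.03% and 0.548% to 0.91%. The means were 0.929% ± 0.0516 and 0.766% ± 0.0762 (SD, n = 2 each), a difference of -0.163 percentage points (two-sided exact permutation test over 6 assignments, p = 0.33, the smallest p these 4 libraries allow). Of the 4616 interneurons (the other interneurons plus the VIP nuclei), VIP nuclei made up 7.55% and 6.63% for controls, against 6.17% and 5.87% for CrT-KO, which is -1.07 percentage points (p = 0.33 by the same exact test). The groups did not overlap on either denominator, but the intervals of the single libraries did.

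The Vip transcript itself was lower along with the share. Over all nuclei, Vip stood at 7.53 and 5.72 CPM for controls, against 4.41 and 3.59 CPM for CrT-KO (exact permutation test, p = 0.33). Within the VIP nuclei, where the rule sets a floor of 1 UMI, it stood at 549.9, 453.4, 396.9 and 361.4 CPM. When Igf1 and Prox1, at least 1 UMI each, took the place of Vip in the rule, 434 nuclei met it, or 1.15% and 1.45% of control and 1.21% and 1.04% of CrT-KO nuclei, and the groups overlapped (difference -0.176 percentage points, exact permutation test, p = 0.67). In those nuclei, Vip stood at 308.0, 187.2, 176.8 and 139.1 CPM by library, and CrT-KO 1 lay close to control 2. Fewer VIP interneurons and less Vip RNA per nucleus cannot be told apart from these counts.

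**Figure D2:**
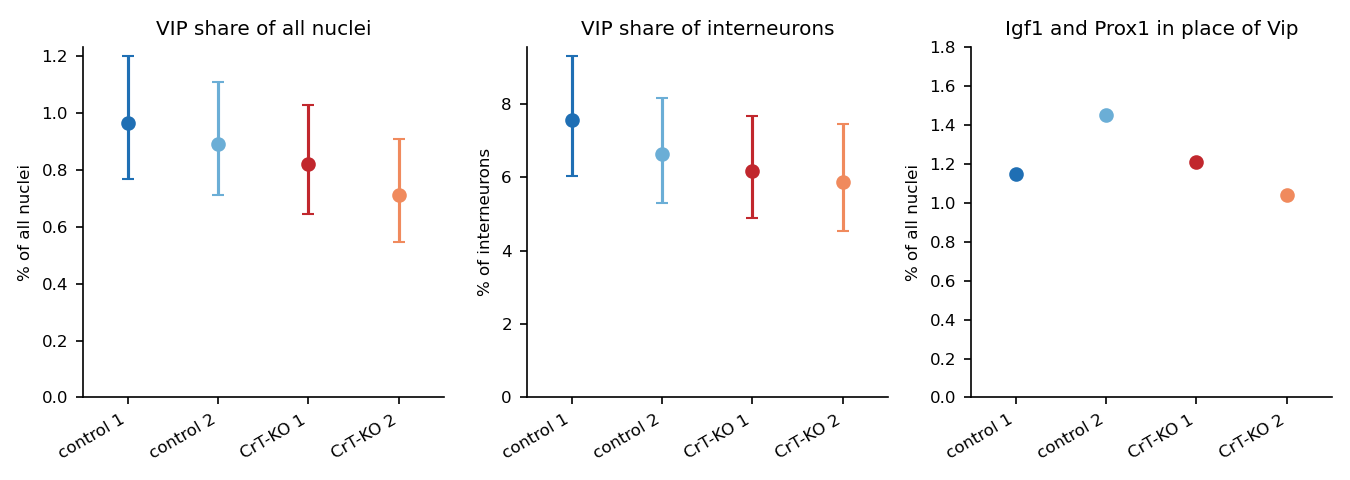
Share of nuclei in each library, in percent, that met the VIP rule among all nuclei (left) and among interneurons (middle), with bars for 95% exact binomial intervals, and the share of all nuclei when Igf1 and Prox1 replaced Vip in the rule (right). The CrT-KO points lie below the control points on the left and in the middle, and the groups overlap on the right.

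Subtype genes marked small fractions of the VIP nuclei. Without correction for depth, Chat, the enzyme that makes acetylcholine, was detected in 40 of 302 nuclei (13.2%), Penk (enkephalin precursor) in 37, Tac2 (neurokinin B precursor) in 32, Cck and Crh in 24 each and Calb2 (calretinin) in 16. Chat had no UMI in 4928 excitatory nuclei, which allows a share of up to 0.0609% of nuclei with a UMI and sets no limit on nuclei expressing the gene. Cck, which excitatory neurons also express, was found in 12.0% of excitatory and 7.95% of VIP nuclei before thinning and in 2.52% and 2.37% after it, and its mean level was 13.1 CPM against 15.7 CPM. Of the 32 Tac2 nuclei, 28 also held Cnr1, the cannabinoid receptor, which was present in 177 of all 302. Of the 16 Calb2 nuclei, 4 also held Chat.

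Genotypes were compared on shares after every nucleus was thinned to 2000 UMIs, which kept 295 nuclei. Chat was then detected in 6.49% and 5.0% of control and 9.21% and 16.1% of CrT-KO VIP nuclei, or 6.92 percentage points more (p = 0.33 by an exact permutation test, adjusted over the 12 genes 0.57). That difference was 3.46 without CrT-KO 2 and 10.4 without CrT-KO 1. Igf1 stood at 79.2%, 66.2%, 73.7% and 53.2%, and Prox1 at 36.4%, 31.2%, 43.4% and 40.3%. Tac2 stood at 3.9%, 2.5%, 5.26% and 6.45% after thinning but at 11.2%, 15.7%, 7.89% and 6.35% before it, and its difference changed sign. Adjusted p-values ran from 0.57 to 1.0 over the 12 genes, and the smallest unadjusted p this design allows is 0.33.

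Gene expression in VIP nuclei was compared between genotypes on UMIs summed per library. Of 5177 genes with enough counts, 17 passed an adjusted p of 0.1, which is 0.328% of those tested, with 3 higher in CrT-KO (0.0579%) and 14 lower (0.27%). An unadjusted p under 0.05 was reached by 302 genes, or 5.83%. The 2 control libraries and the 2 CrT-KO libraries did not overlap for any of the 17, as for 35.3% of all genes tested (19.7% higher and 15.6% lower in CrT-KO). P-values are from edgeR's quasi-likelihood test with Benjamini-Hochberg adjustment, and values by library follow the order control 1, control 2, CrT-KO 1, CrT-KO 2. Many of the 17 rested on few nuclei, and the values per nucleus are therefore given with them.

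The 3 genes that rose were Hs3st4, Cdh18 and Tshz2. All stood higher in excitatory nuclei, at 1235.2, 1067.8 and 205.6 CPM, than in control VIP nuclei, with means of 120.9, 144.1 and 20.2 CPM. They were also higher in the other interneurons, at 365.3, 852.8 and 197.5 CPM, and in LAMP5 nuclei, at 460.4, 564.1 and 110.5 CPM. In SST nuclei Hs3st4 was lower, at 68.4 CPM. Some listed excitatory markers were higher in the CrT-KO VIP nuclei too, as given below. Hs3st4 (chr7:123982869-124398989, plus strand), which encodes a heparan sulfate 3-O-sulfotransferase, had 62, 50, 158 and 116 UMIs, or 139.2, 102.6, 362.5 and 352.3 CPM. The log2 fold change was 1.55 ± 0.20 (SE, adjusted p = 0.000584). It was detected in 32, 28, 30 and 26 nuclei. CrT-KO 1 held nuclei of 43 and 42 UMIs and CrT-KO 2 held nuclei of 43 and 19, while no control nucleus held more than 9. The nucleus of 42 UMIs was marked as a doublet, and the nucleus of 43 UMIs in CrT-KO 2 held no Igf1 or Prox1. Without the highest nucleus in each library the log2 fold change was 1.25 (adjusted p = 0.0727).

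Cdh18 (chr15:22549022-23474418, plus strand), a type II cadherin, had 69, 65, 152 and 108 UMIs, or 154.9, 133.4, 348.7 and 328.0 CPM, with a log2 fold change of 1.21 ± 0.19 (adjusted p = 0.00387). Its UMIs were spread over 30, 35, 42 and 28 nuclei, but 1 nucleus of CrT-KO 2, with no Igf1 or Prox1, held 51 of the 108, and without the highest nucleus of each library the log2 fold change was 0.95 (adjusted p = 0.272). Tshz2 (chr2:169633013-170071816, plus strand), a zinc finger transcription factor, had 7 and 12 UMIs against 47 and 24, a log2 fold change of 2.14 ± 0.36 (adjusted p = 0.00624), found in 5, 9, 15 and 5 nuclei. Of its 24 UMIs in CrT-KO 2, 13 and 8 lay in 2 nuclei that held no Igf1 or Prox1, and 27.7% of its UMIs in CrT-KO 1 lay in doublets. Its log2 fold change was 2.04 without the highest nucleus of each library (adjusted p = 0.272), 2.14 with DESeq2 (adjusted p = 0.243) and 1.76 at 2 or more Vip UMIs (adjusted p = 0.226).

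Of the VIP nuclei, 5, 8, 9 and 8 held neither Igf1 nor Prox1. Without these 30 nuclei, 5 of the 17 genes were still called, namely Hs3st4 (log2 fold change 1.34), Col19a1 (-1.71), Kirrel3 (-0.85), Npas3 (-0.60) and Nxph1 (-2.32). Cdh18 was then at 0.70 (adjusted p = 0.462), Tshz2 had too few counts for the test, and the other 10 kept their direction.

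Among the 14 genes that fell, Col19a1 passed the threshold under all 15 alternatives tried. Col19a1 (chr1:24261890-24587472, minus strand), a fibril-associated collagen, had 80, 75, 15 and 21 UMIs, or 179.6, 153.9, 34.4 and 63.8 CPM, a log2 fold change of -1.83 ± 0.29 (adjusted p = 0.00387). It was found in 18 and 25 control nuclei and in 9 and 9 CrT-KO nuclei, with no nucleus above 15 UMIs. Kirrel3 (chr9:34485894-35036716, plus strand), a synaptic adhesion protein of the immunoglobulin family, had 2233.4, 2152.1, 972.7 and 1460.8 CPM, with a log2 fold change of -0.88 ± 0.15 (adjusted p = 0.00624). Its 995 and 1049 control UMIs lay in 48 and 53 nuclei and its 424 and 481 CrT-KO UMIs in 34 and 35. Kirrel3 passed under 13 of 15 alternatives.

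Npas3 (chr12:53248677-54072175, plus strand), a transcription factor of the bHLH-PAS family, was detected in nearly every VIP nucleus (76, 81, 70 and 59). It fell from 5474.5 and 4016.9 CPM to 2934.1 and 3125.1 CPM, a log2 fold change of -0.67 ± 0.12 (adjusted p = 0.0136). Grip1 (chr10:119453830-120087261, plus strand, overlapping Helb on the other strand), a scaffold that binds AMPA receptors, was as widely detected and fell from 5014.4 and 4322.6 CPM to 3315.0 and 3459.1 CPM, a log2 fold change of -0.48 ± 0.10 (adjusted p = 0.051). Leaving out the highest nucleus of each library gave -0.69 for Npas3 (adjusted p = 0.0899) and -0.50 for Grip1 (adjusted p = 0.14). High counts of Col19a1, Grip1 and Npas3 often shared nuclei, with 15, 202 and 103 UMIs in 1 control 2 nucleus. They were 15, 146 and 79 in 1 nucleus of control 1 and 5, 127 and 72 in 1 of CrT-KO 2. The highest Col19a1 nucleus of CrT-KO 1 held only 4, 16 and 16. These falls are thus not independent of each other, and a differing number of such nuclei was not tested.

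Il1rapl2 (chrX:137570608-138846946, plus strand, overlapping Tex13a on the other strand), a relative of the interleukin-1 receptor accessory protein found at synapses, had the most negative log2 fold change of the 17 and very uneven counts. It had 139, 139, 24 and 37 UMIs (312.0, 285.2, 55.1 and 112.4 CPM), a log2 fold change of -1.91 ± 0.25 (adjusted p = 0.000584). Of the control UMIs, 100 came from 1 nucleus of control 1 with 24389 UMIs in all, and 80 from 1 nucleus of control 2 that was marked as a doublet, had 6 Adarb2 UMIs and held no Igf1 or Prox1. Without doublets the log2 fold change was -1.37 (adjusted p = 0.453), and without the highest nucleus of each library it was -0.90 (adjusted p = 0.578). It was detected in 17, 22, 21 and 12 nuclei. Il1rapl2 stood at a mean of 2526.7 CPM in PV nuclei. The control 1 nucleus of 100 UMIs was also that library's highest for Grip1 (154), Kirrel3 (130), Npas3 (124) and Nxph1 (61). It was the highest for Cadps2 (25), Alk (16), Qk (16) and Arhgap26 (15) too. The highest counts of these genes in control 1 thus do not come from separate nuclei.

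Nxph1 and Cadps2 also had nuclei with very high counts. Nxph1 (chr6:8948431-9249032, plus strand), a secreted ligand of neurexins, had 158, 150, 80 and 30 UMIs, a log2 fold change of -1.25 ± 0.23 (adjusted p = 0.016), and nuclei of 61 and 43 UMIs in control 1 and of 47 and 31 in control 2, the last marked as a doublet. Without doublets its log2 fold change was -1.12 (adjusted p = 0.139). Cadps2 (chr6:23262773-23839421, minus strand, spanning Rnf133 and Rnf148), which primes dense-core vesicles for release, had 130 and 166 UMIs against 84 and 26, a log2 fold change of -1.19 ± 0.25 (adjusted p = 0.051), with 65 UMIs in 1 nucleus of control 2. Without CrT-KO 2 its adjusted p was 0.265.

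The remaining falls had lower counts or smaller changes. Cdh9 (chr15:16728756-16857094), a type II cadherin, had 49, 46, 17 and 10 UMIs (log2 fold change -1.55 ± 0.30). Alk (chr17:71868972-72604627), a receptor tyrosine kinase, had 141, 118, 50 and 53 UMIs in 44, 44, 31 and 30 nuclei (-1.06 ± 0.22). Qk (chr17:10202601-10319854), an RNA-binding protein, had 142, 152, 60 and 66 UMIs in 54, 58, 35 and 31 nuclei (-0.94 ± 0.20). Qk was held by 67.5% and 69.9% of control VIP nuclei and by 46.1% and 49.2% of those of CrT-KO, and Alk by 55.0%, 53.0%, 40.8% and 47.6%. Lrp12 (chr15:39870589-39943994), of the low-density lipoprotein receptor family, had 30, 32, 9 and 7 UMIs, with no nucleus above 4 (-1.68 ± 0.36). Thsd7a (chr6:12311610-12749410), a membrane protein with thrombospondin repeats, had 519, 645, 331 and 290 UMIs (-0.63 ± 0.13). Adjusted p-values of these 5 ran from 0.0285 for Cdh9 to 0.0553 for Lrp12.

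Arhgap26 (chr18:38676718-39110534, plus strand), a GTPase-activating protein, had 214, 213, 102 and 102 UMIs (log2 fold change -0.79 ± 0.17, adjusted p = 0.059). Its locus overlaps Fgf1 on the other strand and a second gene identifier of the same name, so its reads may be shared. Cntnap5c (chr17:57769570-58410355, plus strand), of the contactin-associated protein family with close paralogs that could share reads, had 369, 312, 185 and 167 UMIs (-0.68 ± 0.16, adjusted p = 0.0997) and lay at the edge of the threshold.

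**Figure D3:**
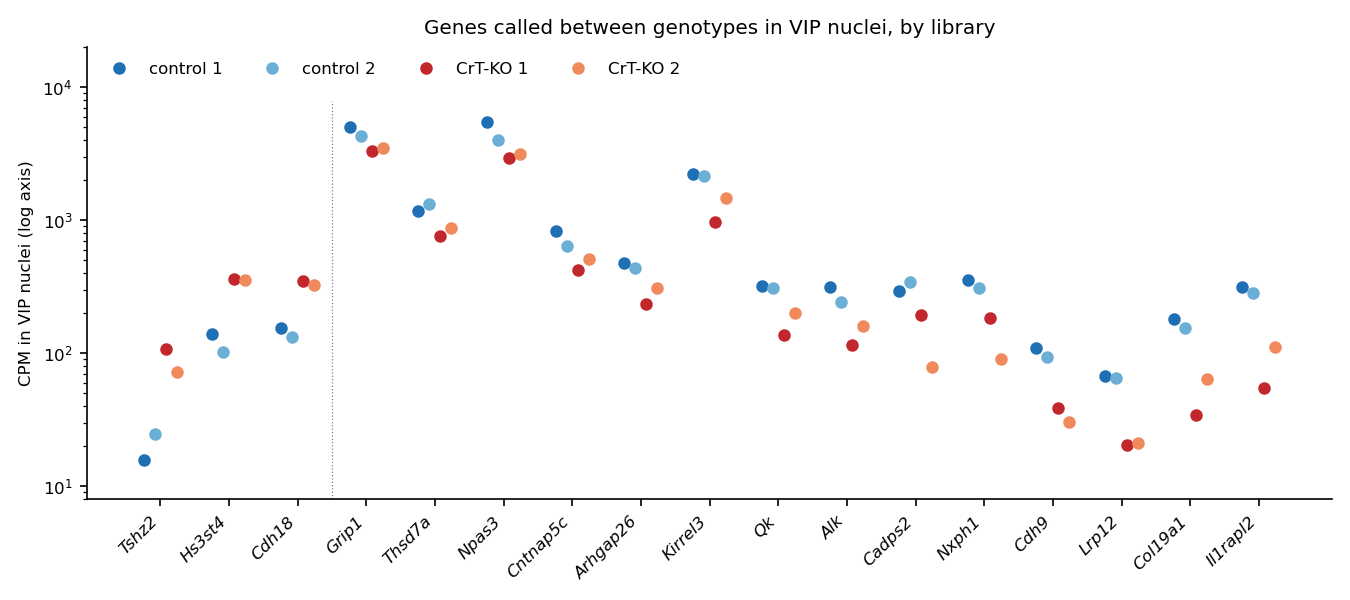
Level of the 17 called genes in VIP nuclei, in CPM on a log axis, with 1 point per library (blue, control; red and orange, CrT-KO). Left of the dotted line are the 3 genes higher in CrT-KO, and right of it the 14 lower ones. The groups do not overlap for any of the 17, as for 35.3% of all genes tested.

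**Figure D4:**
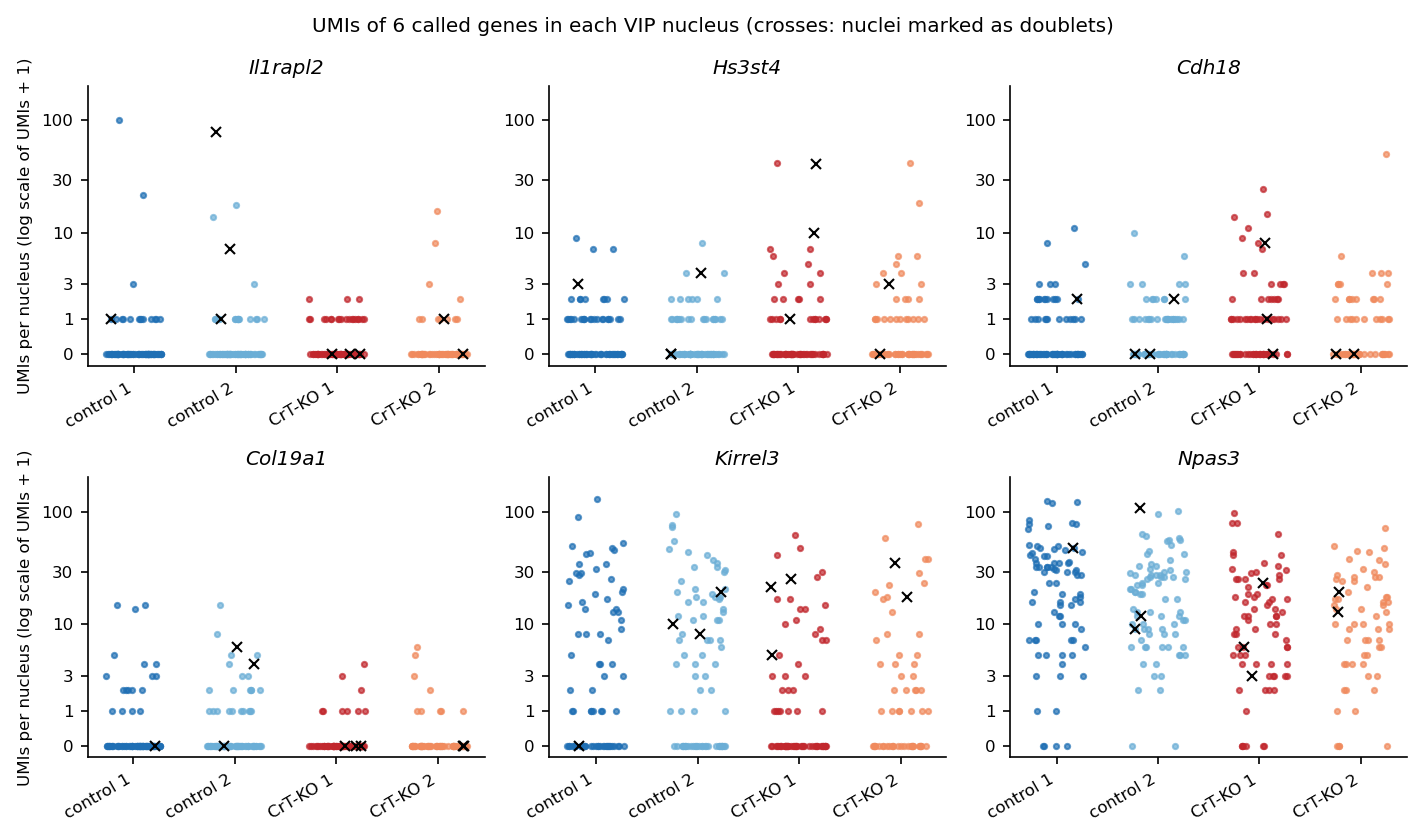
UMIs of 6 called genes in each of the 302 VIP nuclei by library, on a log scale of UMIs plus 1, with crosses for nuclei marked as doublets. The control libraries each hold 1 nucleus of 80 or more Il1rapl2 UMIs, and the CrT-KO libraries hold 3 nuclei of 42 or 43 Hs3st4 UMIs.

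Some listed excitatory markers were higher in the CrT-KO VIP nuclei. The 13 excitatory markers summed to 785.6, 732.4, 1004.8 and 953.6 CPM. Their sum was 1024.0 CPM in the other interneurons, 982.9 CPM in LAMP5 nuclei and 2925.0 CPM in excitatory nuclei. The defining marker Slc17a7 was at 0 by the rule, and Fezf2 also had no UMI. Of the 5 excitatory markers that passed the filter, all had positive values (median log2 fold change 0.92). At an unadjusted p under 0.05, with none called, were 3 of them, namely Sv2b (11, 23, 20 and 33 UMIs), Cux2 (18, 19, 37 and 26) and Rorb (8, 32, 34 and 34). Cux2 did not single out excitatory nuclei here, with 160.4 CPM there against 178.7 CPM in the other interneurons and 255.6 CPM in PV nuclei. In CrT-KO 1, 61.8% of the Rorb UMIs lay in doublets. In CrT-KO 2, 1 nucleus held 16 of the 33 Sv2b UMIs, and the Sv2b libraries overlapped between groups. At least 1 UMI of Neurod6, Neurod2 or Tbr1, transcription factors of excitatory neurons, was held by 3, 2, 2 and 3 VIP nuclei (3.75%, 2.41%, 2.63% and 4.76%, exact permutation test, p = 0.67), of which 4 of 10 were marked as doublets. The same genes were found in 3.37% to 5.54% of the other interneurons and in 32.6% to 37.4% of excitatory nuclei, so most nuclei with excitatory RNA would not be found this way. A refit without these 10 nuclei is given with the alternatives below. Among the results reported here, the part of excitatory transcripts in the genotype differences was not tested otherwise. The 8 astrocyte markers also summed higher in CrT-KO, to 208.7, 268.8, 328.1 and 285.5 CPM, with Slc1a2 at a log2 fold change of 0.42 (unadjusted p under 0.05, not called), and their part was not tested.

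The 12 next genes by unadjusted p whose libraries did not overlap did not pass the threshold. Sema6d, a semaphorin, was at 368.1, 437.0, 635.5 and 646.9 CPM (log2 fold change 0.64 ± 0.15, adjusted p = 0.106). Grik1, a kainate receptor subunit, was at 900.1, 798.1, 626.3 and 489.0 CPM (-0.62 ± 0.15, adjusted p = 0.112). Pnoc, the precursor of nociceptin, had 14, 17, 3 and 1 UMIs in 11, 13, 3 and 1 nuclei (-2.63 ± 0.65, adjusted p = 0.149). The count of Pnoc in CrT-KO was thus 4 in all. Chat (chr14:32408203-32465989), whose locus spans the vesicular acetylcholine transporter gene Slc18a3 on the same strand, had 10, 13, 29 and 20 UMIs in 8, 8, 13 and 11 nuclei (1.34 ± 0.35, adjusted p = 0.215). Htr7, a serotonin receptor, had 35, 32, 10 and 12 UMIs (-1.33 ± 0.34, adjusted p = 0.205). Angpt1 had 48, 60, 86 and 71 UMIs (0.81 ± 0.21, adjusted p = 0.219). The other 6 were March1, Ralyl and Cnksr2, with positive values, and Etl4, Oxr1 and Tll1, with negative ones, at adjusted p-values of 0.119 to 0.293.

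Gene groups of VIP interneuron function were read against all 5177 genes tested, of which 2554 had a positive and 2623 a negative log2 fold change, with 2.67% and 3.17% at an unadjusted p under 0.05 upward and downward. Of the 31 VIP markers, 16 passed the filter, 13 of them negative, with a median log2 fold change of -0.19 and none called. The 16 include Vip (-0.42) and Adarb2 (-0.19), whose counts chose the nuclei, so the median is not free of the rule. At an unadjusted p under 0.05 were Chat upward and Synpr, Grpr, Mybpc1 and Erbb4 downward, beside the rule genes Vip and Adarb2. Synpr, a synaptic vesicle protein, was at 2985.3, 2170.5, 1821.5 and 2010.5 CPM (-0.45 ± 0.13). Erbb4, the neuregulin receptor, was at 12219.5, 11341.0, 10490.9 and 10407.7 CPM (-0.19 ± 0.08). Igf1 (-0.18 ± 0.14) and Prox1 (0.09 ± 0.17) did not pass even the unadjusted threshold.

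Neuropeptide and secretory genes included 2 of the called genes, where 0.328% of all genes tested were called. Of 24 neuropeptide and related ligand genes, 16 were detected and 5 passed the filter, with a median of -0.78, and Nxph1 was called. Igf1, Pnoc, Penk and Nxph1 had negative values, as had Vip, whose UMIs chose the nuclei. Peptide precursors too low for the test were Crh, with 9, 14, 2 and 4 UMIs, Tac2, with 10, 14, 7 and 4, and Cck, with 11, 10, 5 and 2. The CPM of these 3 did not overlap between the groups, as for 35.3% of the genes tested. Of 35 dense-core vesicle genes, 30 passed the filter, 12 positive and 18 negative, with a median of -0.03. Cadps2 was called, while its paralog Cadps was at 1463.5, 1633.0, 1459.0 and 1618.7 CPM.

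Genes of fast transmission gave no call. Of 21 genes of GABA synthesis and synapses, 17 passed the filter, 13 positive and 4 negative, with a median of 0.08 and none called. Gad1 had log2 fold change -0.17 ± 0.17 and Gad2 0.02 ± 0.18, both read by the rule. Gabrg3, a GABA-A receptor subunit, was alone at an unadjusted p under 0.05 (-0.29 ± 0.11). Ionotropic glutamate receptors had 16 of 18 members tested, 9 positive and 7 negative, with a median of 0.03 and none called. Receptors for acetylcholine and monoamines had 10 of 35 tested, 8 of them negative, with a median of -0.30 and none called. Beside Htr7, Chrna7 (the alpha-7 nicotinic receptor, -0.55 ± 0.22) and Adra1a (an adrenergic receptor, -0.52 ± 0.20) had negative values and Chrm2 (a muscarinic receptor, 0.91 ± 0.42) a positive one at an unadjusted p under 0.05. Receptors for peptides and cannabinoids had 7 of 30 tested, with a median of 0.25 and none called, and Cnr1 was at 296.3, 266.7, 190.4 and 249.0 CPM.

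Ion channel genes gave no call. Of 92 potassium channel genes, 34 were tested, 17 in each direction, with a median of 0.00. Kcnh7 (0.41 ± 0.14), Kcnd3 (-0.51 ± 0.18) and Kcnc2 (-0.38 ± 0.15) reached an unadjusted p under 0.05. Of 40 sodium and calcium channel genes, 24 were tested, 18 positive and 6 negative, with a median of 0.09. Among adhesion and matrix families, 12 of 23 cadherins were tested, with Cdh18 called upward, Cdh9 called downward and a median of -0.02. Of 44 collagens, 7 were tested, 6 of them negative, with a median of -0.32 and Col19a1 called.

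Metabolic genes were thinly covered in these nuclei. All 8 mitochondrially encoded genes that passed the filter, of 13, had negative values (median -0.35, none called), and their sum was 1270.4, 1247.3, 1080.5 and 883.8 CPM. Among them, mt-Nd4 (-0.79 ± 0.25) and mt-Atp6 (-0.53 ± 0.23) reached an unadjusted p under 0.05. Of 84 nuclear genes of the respiratory chain, 17 were tested, with a median of -0.01 and none called. Glycolysis genes had 6 of 18 tested, with a median of 0.00. Chaperones of the endoplasmic reticulum had 5 of 19 tested, with a median of 0.13. Immediate-early genes had 2 of 19 tested, clock genes had 8 of 18, with a median of 0.05, and glucocorticoid-responsive genes had 5 of 14, with a median of 0.09. None of these groups held a called gene. Of 79 ribosomal protein genes, 1 passed the filter, and their sum was 312.0, 291.3, 263.8 and 203.5 CPM. Of markers of other neurons, 4 PV markers (median -0.15), 3 SST markers (-0.50), 3 LAMP5 markers (-0.17) and 5 striatal projection neuron markers (-0.73) were tested, and of oligodendrocyte markers 3 (-0.20), with none called. The striatal markers include the rule gene Rarb, at -0.74.

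Whether the genotype difference of VIP nuclei departed from that of other nuclei was tested as an interaction term, blocking on library. Against the other interneurons, 16 of 5176 genes passed (0.309%), and 14 of them were among the 17 called in VIP nuclei, with Sema6d and Angpt1 in addition. The genes for which no interaction was called were Lrp12 (adjusted p = 0.213), Cntnap5c (0.54) and Arhgap26 (0.944). The interaction reads the same VIP counts as the genotype test, so its overlap with the 17 is no separate support for them. In the other interneurons themselves, 5 of 11970 genes were called (0.0418%), among them 1 of the 17, Arhgap26, at -0.54 (adjusted p = 0.0973), and the values of the others lay between -0.23 and 0.21. Angpt1 had log2 fold change 0.81 in VIP nuclei and -0.59 in the other interneurons. The other interneurons also include nuclei with excitatory transcripts at the shares given above. Of the 434 nuclei that met the rule with Igf1 and Prox1 in place of Vip, 185 held Vip, and the rest counted as other interneurons. The reference may thus hold VIP interneurons whose Vip RNA was not captured.

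Against excitatory nuclei, 14 of 5165 genes passed the interaction test (0.271%), while 15 of 12501 genes (0.12%) were called by genotype within excitatory nuclei. Arhgap26 fell in excitatory nuclei too (-1.34, adjusted p = 0.000197), and its interaction was not called (0.59, adjusted p = 0.432). Cntnap5c moved the other way, with 0.58 in excitatory nuclei (adjusted p = 0.00789) against -0.68 in VIP nuclei and an interaction of -1.23 (adjusted p = 0.00254). Col19a1 was at -0.15 in excitatory nuclei (adjusted p = 0.68) and 0.01 in the other interneurons (adjusted p = 0.998), and both of its interactions were called. Kirrel3 and Npas3 were likewise called in both.

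The 4314 other interneurons pool several types, against which no interaction was tested one by one. PV nuclei were taken by Pvalb, SST nuclei by Sst, and LAMP5 nuclei by Lamp5 with Adarb2, all without Vip. These sets held only 187, 39 and 201 nuclei, so most of the other interneurons belonged to none of them. Npas3 was at -0.70 ± 0.19 in LAMP5 nuclei (adjusted p = 0.669) and -1.05 ± 0.42 in SST nuclei (adjusted p = 0.755), against -0.67 in VIP nuclei. Hs3st4 was called in the opposite direction in PV nuclei (-2.05 ± 0.24, adjusted p = 0.000143). Cadps2 (-1.39 ± 0.54, adjusted p = 0.641) and Cdh9 (-0.87 ± 0.28, adjusted p = 0.464) had negative values in PV nuclei too, and neither was called there. In the order PV, LAMP5 and SST nuclei, Cdh18 was at 0.22, -0.93 and 1.19, and Kirrel3 at -0.22, -0.17 and -0.68. Cntnap5c was at -0.72, -0.70 and 0.51, Alk at -0.57, 0.04 and -0.19, and Il1rapl2 at 0.10, 1.70 and -1.18. None of these was called, and SST nuclei numbered only 39.

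**Figure D5:**
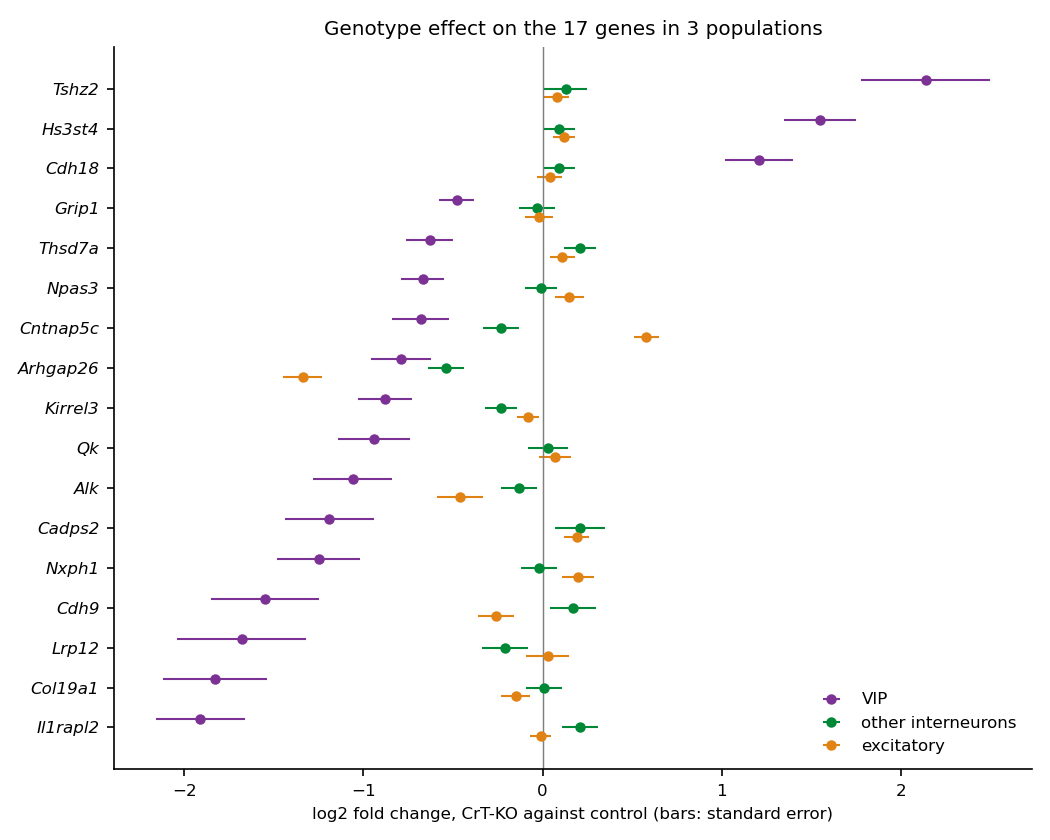
Log2 fold change of CrT-KO against control for the 17 genes called in VIP nuclei, in VIP nuclei, in the other interneurons and in excitatory nuclei, with bars for standard errors. The points of the other interneurons and of the excitatory nuclei lie between -0.46 and 0.21, except Arhgap26 in both and Cntnap5c in excitatory nuclei.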

How the data were processed

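Single-nucleus RNA-seq was analysed in 4 libraries, each from the right cerebral cortex of a separate animal (2 control, 2 CrT-KO). The authors sorted nuclei by flow cytometry, used a 10x 3' kit and deposited raw UMI counts per gene and barcode. Per the study's methods, these counts came from Cell Ranger 3.1.0 with a GRCm38 (mm10) reference in which whole gene bodies, introns included, were counted, and barcodes of low UMI content were removed. Seurat 3.1.4 and FastQC are also named. Whether counting used strand is not given in the sources used here, so reads of overlapping genes cannot be told apart. Gene coordinates are from GENCODE release 21 (21816 genes matched by ID).

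The members, gene lists and alternatives were chosen with earlier results of these data known. VIP nuclei were taken by the stated UMI rule and their counts summed per library (329274 to 487435 UMIs). Sums were tested with edgeR 4.0.16 (R 4.3.3, TMM, filterByExpr with a minimum of 10 counts per library and 15 over all, quasi-likelihood test, Benjamini-Hochberg, threshold 0.1). The study itself tested single nuclei with a rank sum test, which is not used here because nuclei of 1 animal are not replicates. SE is the absolute log2 fold change divided by the square root of F. Interactions used the library as a block. Shares were compared by two-sided exact permutation tests (scipy 1.17.1). Exact 95% intervals, and the limit of 3 counts for a count of 0, cover counting error only. Doublets were scored per library by Scrublet (scanpy 1.11.5), kept, and left out as an alternative.

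Other alternatives were DESeq2 1.42.0, other normalization and count filters, each library left out, a replicate block, at least 2 Vip UMIs and thinning to 2000 UMIs. Chosen after seeing the data were leaving out the highest nucleus of each gene, leaving out nuclei with excitatory transcripts (any UMI of Neurod6, Neurod2 or Tbr1), leaving out nuclei with neither Igf1 nor Prox1, and using Igf1 and Prox1 in place of Vip. Genes named in the text were drawn from the rule genes, VIP markers and creatine genes, all called genes, the 12 next by unadjusted p without overlap, list members at an unadjusted p under 0.05, genes called in the interaction, the 15 with the highest ratio to other interneurons, and the 2 highest of each list. Not every list member at an unadjusted p under 0.05 is named. Crh, Tac2 and Cck were named as VIP subtype genes, and genes that define other cell types as checks. Data were simulated for the 5177 genes with a common dispersion for all of them. There, log2 changes of 1 were recovered for 62% of 50 genes with mean counts up to 100 and for 98% of 50 genes above. There were 25 false calls. These rates need not hold for genes whose counts lie in single high nuclei, which the simulation did not include. Some results are not reported here, among them an exclusion of nuclei by a wider set of excitatory markers, which removed more nuclei and left fewer calls, so the exclusion given is no sign of stability.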

Additional observations from a re-analysis of the deposited data

Results flagged for a closer look

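Genotype differences that departed between VIP nuclei and other nuclei are listed here because an interaction test passed an adjusted p of 0.1 (edgeR). Values are the log2 fold change in VIP nuclei minus that in the reference. They reuse the VIP counts that gave the genotype calls and are no separate support for those calls. Against the other interneurons they were -2.11 for Il1rapl2, -1.84 for Col19a1, -1.7 for Cdh9, -1.45 for Cadps2, -1.22 for Nxph1, -0.98 for Qk, -0.91 for Alk, -0.83 for Thsd7a, -0.66 for Kirrel3, -0.63 for Npas3 and -0.45 for Grip1. On the positive side they were 0.7 for Sema6d, 1.13 for Cdh18, 1.4 for Angpt1, 1.46 for Hs3st4 and 2.01 for Tshz2.

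Against excitatory nuclei the values were -1.87 for Il1rapl2, -1.66 for Col19a1, -1.41 for Nxph1, -1.35 for Cadps2, -1.23 for Cntnap5c, -0.99 for Qk, -0.79 for Kirrel3, -0.77 for Npas3, -0.63 for Epha6 and -0.54 for Galntl6. They were 1.21 for Cdh18, 1.46 for Hs3st4 and 2.11 for Tshz2. Col19a1, Kirrel3, Npas3, Qk and Hs3st4 also passed the genotype test in VIP nuclei when the highest nucleus of each library was left out. The values of Il1rapl2 rest on the 2 control nuclei of 100 and 80 UMIs described above. In PV nuclei, by a fit of their own, Hs3st4 was at -2.05.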

How the results depend on the processing

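The 17 genotype calls in VIP nuclei kept their direction wherever they were tested, but their number moved. It was 6 with DESeq2 (all 6 among the 17), 39 with no filter on low counts, 10 with at least 2 Vip UMIs (6 of the 17), 5 without the highest nucleus of each gene (all among the 17), 5 without the 30 nuclei with neither Igf1 nor Prox1 (all among the 17), 19 without the 10 nuclei with Neurod6, Neurod2 or Tbr1 (16 of the 17, Nxph1 being lost at -1.06) and 10 at a threshold of 0.05. Without doublets 12 were called, 11 of them among the 17. After thinning to 2000 UMIs 13 were called, 8 of them among the 15 of the 17 still tested. Leaving out 1 library gave 18 to 54, with 54 without control 2 and 30 without CrT-KO 2, and left 10 to 16 of the 17. Lost were Alk, Grip1, Arhgap26 and Cntnap5c without control 1, these and Qk, Thsd7a and Lrp12 without CrT-KO 1, Thsd7a without control 2 and Cadps2 without CrT-KO 2. A lone library in a group is assumed to vary like the other group. With the replicate block 60 were called, including all 17. Deviations of libraries with the same number correlated at 0.0734 over 5177 genes. Counting noise lowers such a correlation, so it cannot show whether the numbers pair the animals.

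Interaction calls against the other interneurons numbered 10 without doublets and 16 to 28 with 1 library left out (28 without CrT-KO 1). Against excitatory nuclei they numbered 7 at a threshold of 0.05 and 27 to 65 with 1 library left out (27 without control 1, 65 without control 2, 28 without CrT-KO 1, 30 without CrT-KO 2). The cause of these changes was not tested.

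The mean share of VIP nuclei stayed lower in CrT-KO in every alternative, by -0.24 to -0.11 percentage points of all nuclei and -1.75 to -0.607 of interneurons. With Igf1 and Prox1 in place of Vip, however, the libraries overlapped between the groups. All other alternatives still read the Vip count, which was itself lower in CrT-KO. Subtype shares changed sign without thinning for Calb2 (-0.816), Tac2 (-6.33), Prox1 (-0.19) and Htr3a (-0.668). With 1 library left out they ran from -19.5 to 0.949 for Igf1 (0.949 without CrT-KO 2), -0.475 to 2.12 for Htr3a, -0.884 to 3.49 for Npas1 and -4.28 to 1.74 for Grpr. Of 805 alternative values for 55 genes, 671 kept direction and call, 73 lost the call, 60 gained it and 1 reversed (Chrm2, -0.03 without nuclei with neither Igf1 nor Prox1). The 671 include genes that were not called and stayed so. Only a called gene can lose its call, so all 73 losses fell on the called genes. Among these, the call held in 7 of 15 alternatives for Cntnap5c and in 15 of 15 for Hs3st4 and Col19a1, the lowest and highest support. The pooled count thus does not measure how stable the calls were. With 302 nuclei, genes of few counts such as Slc6a8 could not be tested.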
